A study of Homo sapiens with 12 samples.

Results

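In SUDHL4 lymphoma cells, 294 genomic regions carried a called peak of H3K27 acetylation in both wild-type clones and in both EP300 knock-out clones, and in neither CREBBP knock-out clone. The 6 deposited peak lists were joined wherever peaks shared at least 1 base, which gave 47344 merged regions on chromosomes 1 to 22. Of these, 22567 were present in both wild-type and both EP300 knock-out clones, and the 294 members make up 1.3% of them. The members were chosen by the presence of peaks in all 6 clones, so their absence from the CREBBP knock-out lists and their presence in the EP300 knock-out lists are what defined them and are given here as descriptions.

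CREBBP and EP300 are closely related acetyltransferases that are brought to enhancers and promoters by transcription factors and acetylate histone H3 at lysine 27, a mark of active regulatory DNA. They share many target sites, and a cell that lacks either enzyme usually needs the other. In B cells of the germinal centre, CREBBP is known for acting at enhancers of genes of antigen presentation and of the exit from the germinal centre, and it is among the genes most often mutated in diffuse large B-cell lymphoma and follicular lymphoma.

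SUDHL4 is a human diffuse large B-cell lymphoma line of the germinal-centre type. The CREBBP-KO group held 2 clones, edited with CRISPR/Cas9 at exon 15 in clone 1 and exon 20 in clone 2. For clone 1 the exon in the sample title and the exon in the protocol differ, and the protocol's is given here. The EP300-KO group held 2 clones edited at exon 17 and exon 24. The WT group held 2 clones edited at a neutral site in PPP1R12C, and their CREBBP and EP300 proteins were checked by western blot according to the labels. All 6 are clones grown from single cells, so each genotype is represented by 2 independent clones of 1 line, and differences between clones that have nothing to do with the edited gene cannot be told apart from the edit where they happen to coincide. Chromatin cross-linked in 1% formaldehyde was immunoprecipitated with an H3K27ac antibody, and the authors called peaks against an input library of the same clone.

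The lists held 36096 and 41099 peaks in CREBBP-KO clones 1 and 2, 35054 and 35841 in the EP300-KO clones, and 46940 and 40658 in the WT clones. The depth of each library is not given, and peak lists hold no reads, so the graded measure here is the number of bases of a region that a clone's peaks cover. A peak's score is the authors' own value, on a scale that the files do not state, and is used only as a percentile within its own list. In the 1 Mb windows of the B-cell genes CD79A, MS4A1 and CD22, peaks outside the members covered 26.8 to 68.1 kb in every clone, but the windows of the T-cell gene CD3E, the monocyte gene CD14 and the liver gene ALB were covered as well, by 16.3 to 67.7 kb, so windows of this size do not separate cell types. Peak lists of H3K27ac cannot check the loss of the edited proteins, which the labels report from sequencing and western blot.

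The members were short, low-scoring peaks. Their median covered length was 271 and 253 bases in the EP300-KO clones, against 336 and 207 bases in the WT clones. The WT clones lay on either side of the EP300-KO clones. Regions that both CREBBP-KO clones also had were longer, with a median of 822.5 bases over the mean of the 4 WT and EP300-KO clones, against 282.5 bases for the members. The 1029 regions that exactly 1 CREBBP-KO clone had were close to the members in length, with a median of 302 bases. By score, the median member stood at percentile 31.71 and 26.52 of the EP300-KO lists and at 41.49 and 19.65 of the WT lists. In 253 of the 294 members, every list that had the region had it as a single peak.

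The share of regions that were members fell steeply with length. Among regions with a mean covered length under 250 bases, 114 of 1624 were members, which is 7.02%. The share was 2.6% of 5238 regions from 250 to 500 bases, 0.586% (41 of 6996) from 500 to 1000 bases and 0.0536% (3 of 5600) from 1000 to 2000 bases. None of the 3109 regions of 2000 bases or more was a member. By score percentile the share was 12.4% in the lowest class, under the 20th, and 0.0142% (1 of 7048) in the highest, from the 80th.  Regions missing from exactly 1 CREBBP-KO clone followed the same order of classes. Of those 1029, 934 were missing from clone 1 and 95 from clone 2, the CREBBP-KO clone with the longer list.

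**Figure D1:**
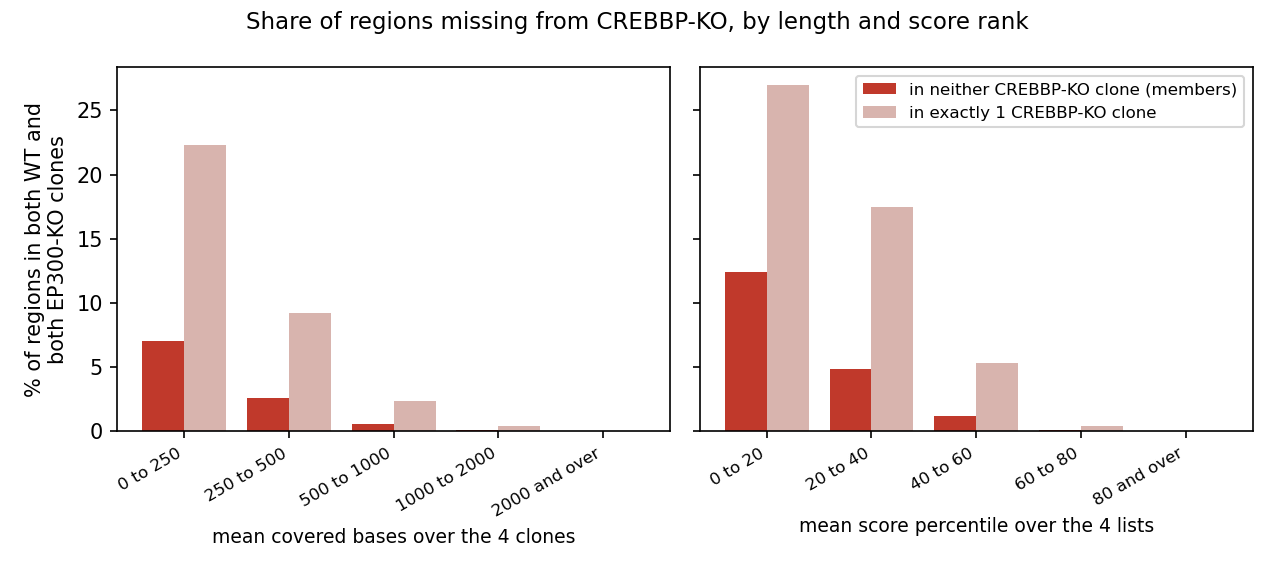
Share of the 22567 regions present in both WT and both EP300-KO clones that were missing from both CREBBP-KO clones (members, dark bars) or present in exactly 1 (light bars), in % on the vertical axis, by mean covered length in bases (left) and mean score percentile (right). Both shares are highest in the shortest class, at 7.02% and 22.3%, and are 0 from 2000 bases.

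Only 5 members covered at least 500 bases in each of the 4 clones that had them, and 200 covered under 200 bases in at least 1 of the 4. The member with the largest lowest covered length over these 4 clones, called the longest here, lies at chr5:180687558-180689185 (hg19), in the 1 Mb window that also holds TRIM41 and TRIM52, genes of the tripartite-motif family, and RACK1, a scaffold protein of the ribosome. Peaks covered 0 and 0 bases of it in the CREBBP-KO clones, 1565 and 1581 bases in the EP300-KO clones, and 1590 and 1628 bases in the WT clones. Both EP300-KO clones were slightly below both WT clones. Its score percentile was 96.5 and 93.8 in the EP300-KO lists, and 93.4 and 96.7 in the WT lists. It was the only member with a mean percentile of 75 or more over the 4 lists, and 25 members reached 50.

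Peaks next to this region were present in the CREBBP-KO clones. The region at chr5:180669392-180671811 covered 2236 and 2333 bases in the CREBBP-KO clones, 2211 and 2217 bases in the EP300-KO clones, and 2420 and 2204 bases in the WT clones. Neither knock-out was separated from the WT clones there. CREBBP-KO clone 2 had a short peak 464 bases from the member, and the nearest region in all 6 clones lay 13319 bases away. In that nearer region, chr5:180672907-180674238, peaks covered 1030 and 1158 bases in the CREBBP-KO clones and 995 and 1102 bases in the EP300-KO clones. They covered 1311 and 1201 bases in the WT clones, so both clones of each knock-out were shorter than both WT clones. In the limma fit on log2(covered bases + 100) over 19860 regions, the log2 difference of the member was -4.06 (SE 0.16, adjusted p = 0.015) for CREBBP-KO minus WT, -4.23 (SE 0.16, adjusted p = 0.0015) for CREBBP-KO minus EP300-KO, and 0.17 (SE 0.16, adjusted p = 0.512) for EP300-KO minus WT. The fit centres each clone on its own median, so the sign of the last contrast differs from the order of the covered bases. The rule used these contrasts, and the first call was lost in the fit of only the 4 clones compared, with an adjusted p of 0.272. It was also lost without CREBBP-KO clone 1 (0.16), without WT clone 1 (0.136), and without EP300-KO clone 1 (0.115) or 2 (0.142).

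Some of the next longest members lay far from any peak of the CREBBP-KO clones. The region chr4:80524593-80525499 covered 846 and 850 bases in the EP300-KO clones, and 900 and 870 bases in the WT clones. Its nearest CREBBP-KO peak was 468477 bases away. The region chr3:41012985-41013836 covered 799 and 728 bases in the EP300-KO clones, and 473 and 514 bases in the WT clones, with the nearest CREBBP-KO peak 226664 bases away. Here both EP300-KO clones were longer than both WT clones, while on chromosome 4 both were shorter.

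Some of the 12 longest members were much longer in 1 clone of a genotype than in the other. The region chr6:76457501-76458755, in the window of MYO6, an actin motor, covered 1255 and 458 bases in the EP300-KO clones, and 941 and 564 bases in the WT clones. The region chr7:33139444-33140723 covered 646 and 539 bases in the EP300-KO clones, and 1252 and 493 bases in the WT clones. In both, the spread within at least 1 genotype was wider than the difference between the genotypes' means. Members chosen after their values were seen were longer still in single clones. At chr16:49089795-49091998 peaks covered 2175 and 1759 bases in the EP300-KO clones, against 752 and 115 bases in the WT clones, so both EP300-KO clones were longer and 1 WT clone had only a short peak. The other 7 of the 12 longest by lowest covered length, on chromosomes 1, 5, 6, 8, 10 and 15, had a lowest covered length of 456 to 788 bases.

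**Figure D2:**
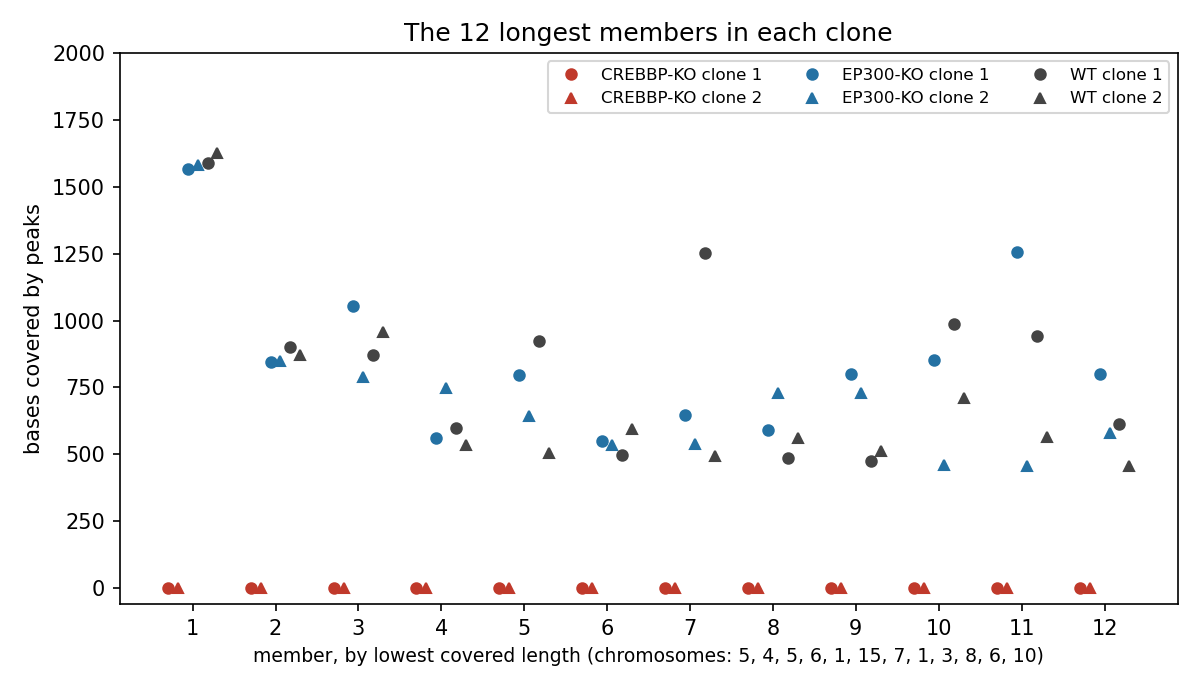
Bases covered by peaks in each clone (vertical axis) for the 12 members with the largest lowest covered length over the 4 clones that have them, ordered by that length. CREBBP-KO clones are red and at 0 by the rule, EP300-KO clones blue and WT clones grey. The first member lies between 1565 and 1628 bases in the 4 clones, and the EP300-KO and WT points of the others intermingle or change order from member to member.

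Further members ranked high by score. The region chr22:35746078-35746873, in the window that also holds HMOX1, which breaks down heme, covered 751 and 770 bases in the EP300-KO clones, and 644 and 219 bases in the WT clones. Its percentile was 75.7 and 80.4 in the EP300-KO lists, and 83.3 and 53.3 in the WT lists. A neighbouring pair at chr2:192489315-192490008 and chr2:192490099-192490519 was 90 bases apart. The first of the pair covered 383 and 356 bases in the EP300-KO clones, and 694 and 488 bases in the WT clones, so both EP300-KO clones were shorter than both WT clones. The nearest CREBBP-KO peak was 49670 bases from the second.

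Other members named by score included chr3:101232094-101232571 in the window of SENP7, a SUMO protease, and regions on chromosomes 14, 16 and 19. At chr19:53822802-53823840 peaks covered 1002 and 1017 bases in the EP300-KO clones, and 523 and 304 bases in the WT clones. Both EP300-KO clones were longer there. Gene names in these sentences are those of the 1 Mb window, were chosen after the positions were seen, and do not assign a region to a gene.

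Members came in runs at a few places. Of the 294, 41 had another member within 25 kb and 20 within 1000 bases. They fell in 237 windows of 1 Mb, of which 43 held 2 members, 5 held 3 and 1 held more. That window, at 5 to 6 Mb of chromosome 6, also holds FARS2, a mitochondrial tRNA synthetase, and held 5 members among 10 regions present in both WT and both EP300-KO clones. Chromosome 6 had the highest share of members of any chromosome, 27 of 1124 or 2.4%, and chromosome 14 the lowest, 5 of 791 or 0.632%.

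At chr6:5289937-5290810 peaks covered 560 and 748 bases in the EP300-KO clones, and 599 and 536 bases in the WT clones. At chr6:5294394-5294847 they covered 331 and 435 bases in the EP300-KO clones, and 353 and 373 bases in the WT clones. At chr6:5302806-5303554 they covered 476 and 586 bases in the EP300-KO clones, and 749 and 367 bases in the WT clones. EP300-KO and WT overlapped in all 3. The short chr6:5290912-5291285 next to the first covered 198 and 166 bases in the EP300-KO clones, and 374 and 330 bases in the WT clones, with both EP300-KO clones shorter. Between them, chr6:5298019-5298986 was not a member, because CREBBP-KO clone 2 kept a short peak. It covered 0 and 162 bases in the CREBBP-KO clones, 948 and 968 bases in the EP300-KO clones, and 800 and 532 bases in the WT clones. Apart from that peak, both CREBBP-KO lists were empty over the run.

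The fifth member of this window, chr6:5718385-5719057, stood apart from the run. It covered 673 and 531 bases in the EP300-KO clones, against 151 and 207 bases in the WT clones, so both EP300-KO clones were longer. Near it, chr6:5695341-5696789 was called in the EP300-KO clones, at 1449 and 986 bases, and not in the WT clones or the CREBBP-KO clones.

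A second run, singled out after its values were seen, lay in the window of PDZD2, a PDZ-domain protein, on chromosome 5. The region chr5:32013659-32014740 covered 1055 and 788 bases in the EP300-KO clones, and 872 and 957 bases in the WT clones. The region chr5:32017874-32018975 covered 1050 and 780 bases in the EP300-KO clones, and 921 and 390 bases in the WT clones. The region chr5:32020239-32020633 covered 395 and 321 bases in the EP300-KO clones, and 346 and 236 bases in the WT clones. EP300-KO and WT overlapped in all 3. Before them on the chromosome, chr5:32004220-32005433 covered 203 and 0 bases in the CREBBP-KO clones, 1111 and 1000 bases in the EP300-KO clones, and 1096 and 412 bases in the WT clones, so here clone 1 was the CREBBP-KO clone with a short remaining peak.

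**Figure D3:**
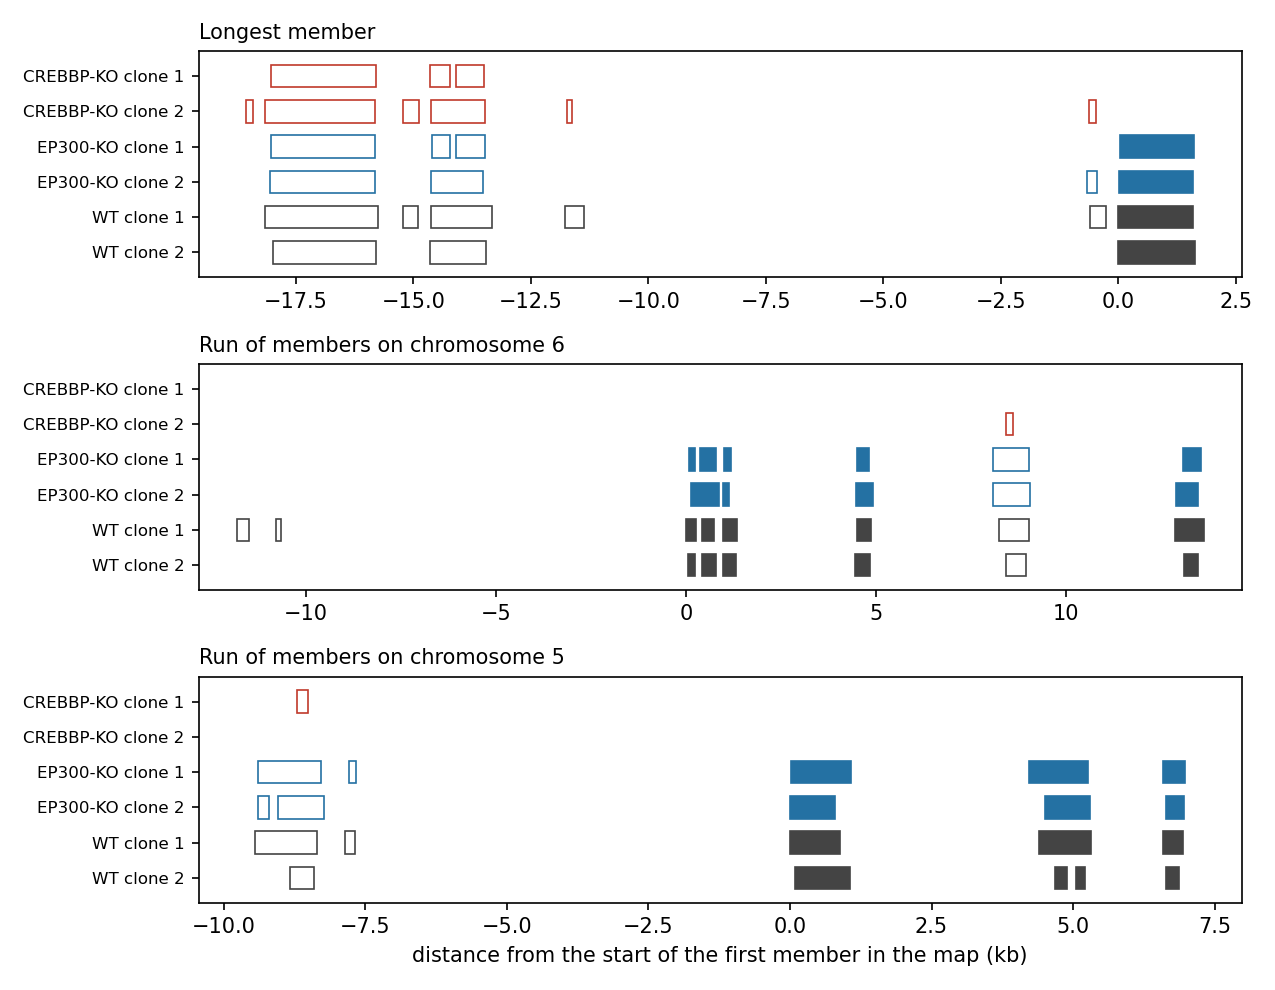
Called peaks in each of the 6 clones (rows, CREBBP-KO at the top, WT at the bottom) around the longest member on chromosome 5, the run of members on chromosome 6 and the run on chromosome 5, by distance in kb from the start of the first member. Filled boxes belong to members and open boxes to other regions. In the first map peaks to the left are present in every clone, while in the 2 runs the CREBBP-KO rows hold only short open boxes, of 162 bases in clone 2 on chromosome 6 and 203 bases in clone 1 on chromosome 5.

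Distances to the nearest CREBBP-KO peak varied widely. For 102 members (34.7%) a peak of a CREBBP-KO clone lay within 1000 bases, for 100 it was over 1000 and up to 25000 bases away, and for 92 it was farther. For 38 members it was over 100 kb away. The 192 members with no CREBBP-KO peak within 1000 bases had both CREBBP-KO lists empty over that distance on either side.

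Members also lay in the 1 Mb windows of 36 listed genes, which are genes of germinal-centre B-cell biology and reference genes. Of the 848 regions in these windows that both WT and both EP300-KO clones had, 8 were members (0.943%), in 7 windows, where 1.3% of all such regions were. The window of CIITA, the transactivator of MHC class II genes, held 1. At chr16:10965145-10965770 peaks covered 585 and 524 bases in the EP300-KO clones, and 538 and 242 bases in the WT clones. A region present in all 6 clones lay 82 bases from it. The windows of HLA-DRA, an MHC class II chain, CD74, the class II invariant chain, and B2M, the class I light chain, held no member.

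The window of CD83, a surface protein of light-zone and activated B cells, held a long member that the EP300-KO clones had only in part. At chr6:14276363-14277986 peaks covered 0 and 0 bases in the CREBBP-KO clones, 195 and 645 bases in the EP300-KO clones, and 1588 and 1263 bases in the WT clones. Both EP300-KO clones were shorter than both WT clones. With the member removed, peaks in this window covered 1.19 and 2.18 kb in the CREBBP-KO clones, 1.66 and 1.91 kb in the EP300-KO clones, and 5.99 and 4.26 kb in the WT clones. In both knock-outs the 2 clones were below both WT clones. In limma the log2 difference was -1.51 (SE 0.24, adjusted p = 0.0705) for CREBBP-KO minus WT and -1.19 (SE 0.24, adjusted p = 0.0279) for EP300-KO minus WT, so only the second passed at 0.05. The direct difference in limma, CREBBP-KO minus EP300-KO, was -0.32 (SE 0.24, adjusted p = 0.353) and did not pass.

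The window of IRF8, a transcription factor of germinal-centre B cells, held 2 members. At chr16:85865581-85866256 peaks covered 205 and 117 bases in the EP300-KO clones, and 676 and 451 bases in the WT clones, so both EP300-KO clones were shorter. At chr16:85969444-85970181 they covered 314 and 531 bases in the EP300-KO clones, and 738 and 259 bases in the WT clones, which overlapped. The windows of NFKBIA, an inhibitor of NF-kB, MEF2B, a transcription factor, MS4A1, which encodes CD20, and CD22, an inhibitory coreceptor, held 1 short member each, with 163 to 495 bases in the 4 clones that had them. With members removed, 0 of the 35 listed windows tested passed in limma for CREBBP-KO minus WT in either direction, where 0% of all 1967 windows passed. For EP300-KO minus WT, 8 of the 35 were lower and 0 higher, where 8.69% and 4.98% of all windows were.

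The members differed in both directions between EP300-KO and WT clones. The median member had a mean covered length of 265.25 bases in the EP300-KO clones, against 277.5 bases in the WT clones, and the median difference was -7.75 bases, with single members from -1005.5 to 1533.5. For regions present in all 6 clones the median difference of EP300-KO minus WT was -73.5 bases. Of the members, 57 (19.4%) were longer in both EP300-KO clones than in both WT clones and 56 (19%) were shorter in both. Among the 22273 other regions in both WT and both EP300-KO clones, 10.1% were longer and 44.9% shorter in both. A length difference in bases is smaller for short regions, and the members had to be present in both EP300-KO lists, so nothing is read from this difference.

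Only 53 of the 294 members passed the filter of the region fit, at least 500 bases in at least 2 clones, and these are the longer ones. In the comparison of CREBBP-KO minus WT, 1 of the 53 was called lower, where 0.0101% of all 19860 regions were, and nothing is read from either share because the rule used this contrast. In CREBBP-KO minus EP300-KO, 45 were called lower and 0 higher, where 1.9% and 7.21% of all regions were. The rule fixed this direction as well, since every member is at 0 in the CREBBP-KO clones and present in the EP300-KO clones, and nothing is read from it. In EP300-KO minus WT, limma called 0 lower and 0 higher, where 6.13% and 1.21% of all regions were called. At an unadjusted p under 0.05 in limma, 2 of the 53 were lower and 7 higher, where 24.9% of all regions passed in either direction. The rule required a peak in both EP300-KO and both WT clones, so full loss or gain could not occur here. Nothing is read from these counts either. These comparisons share the WT or the knock-out clones and are not independent of each other.

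The regions around the members are not members, since every clone has them. Their lengths are not independent of the rule, because a CREBBP-KO peak that reached a member would have joined it and removed it. For 102 members a CREBBP-KO peak lay within 1000 bases. How far this shortens the neighbours in the CREBBP-KO clones was not tested. Within 25 kb of a member lay 419 regions with a peak in all 6 clones. They made up 1.646% and 1.636% of all bases covered in such regions in the CREBBP-KO clones, 1.897% and 1.864% in the EP300-KO clones, and 1.824% and 1.747% in the WT clones. Both CREBBP-KO clones were below every other clone, and both EP300-KO clones were above both WT clones. The means were 1.64 ± 0.0071% in CREBBP-KO, 1.88 ± 0.023% in EP300-KO and 1.79 ± 0.0541% in WT clones (SD, n = 2 each). The exact two-sided permutation test gave p = 0.33 for each of the 3 comparisons, the smallest value that 2 clones against 2 can give, so the test cannot pass at 0.05.

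Region by region, the neighbours leaned the same way only relative to all regions. In bases, more of them were shorter than longer in the EP300-KO clones too. In 135 of the 419 (32.2%), both CREBBP-KO clones covered fewer bases than both WT clones, where 18% of all 21244 regions present in the 6 clones did. In 38 (9.07%) both covered more, where 15.1% of all did. The share with both shorter was 36.6% within 10 kb and 26.9% within 100 kb of a member, so it was higher close to the members. In the EP300-KO clones 34.8% of the neighbours were shorter than in both WT clones, where 45.5% of all regions were, and 11.5% were longer, where 10% of all were. In the direct comparison, 26.5% were shorter in both CREBBP-KO clones than in both EP300-KO clones, where 13.2% of all regions were, and 19.8% were longer, where 40.5% were. Several neighbours can lie near the same member, so they are not replicates.

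On the log2 scale of the region fit, 318 of the 419 neighbours passed the filter. Their median difference of CREBBP-KO minus WT was -0.05, against 0.03 for all 16811 tested regions present in the 6 clones. The median for EP300-KO minus WT was 0.15, against 0.08 for all. For CREBBP-KO minus EP300-KO it was -0.17, against -0.06 for all. Without centring on the clones' medians these differences shift, to -0.09 against -0.01 for CREBBP-KO minus WT, to -0.05 against -0.12 for EP300-KO minus WT and to -0.01 against 0.1 for CREBBP-KO minus EP300-KO. Centring shifts all regions of a clone alike, so the gap between the neighbours and all regions is the same by construction, and the EP300-KO minus WT median itself turned negative.

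No single neighbour passed for CREBBP-KO minus WT. In limma 0 of 318 were called lower and 0 higher, where 0% of all regions in the 6 clones were. At an unadjusted p under 0.05, 43 (13.5%) were lower, where 4.08% of all were, and 5 (1.57%) were higher, where 3.97% were. For CREBBP-KO minus EP300-KO, 18 were called lower and 5 higher, where 1.53% and 4.37% of all were. Those are 5.66% and 1.57% of the neighbours. For EP300-KO minus WT, 6 were called lower and 4 higher, where 3.38% and 1.04% of all were.

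**Figure D4:**
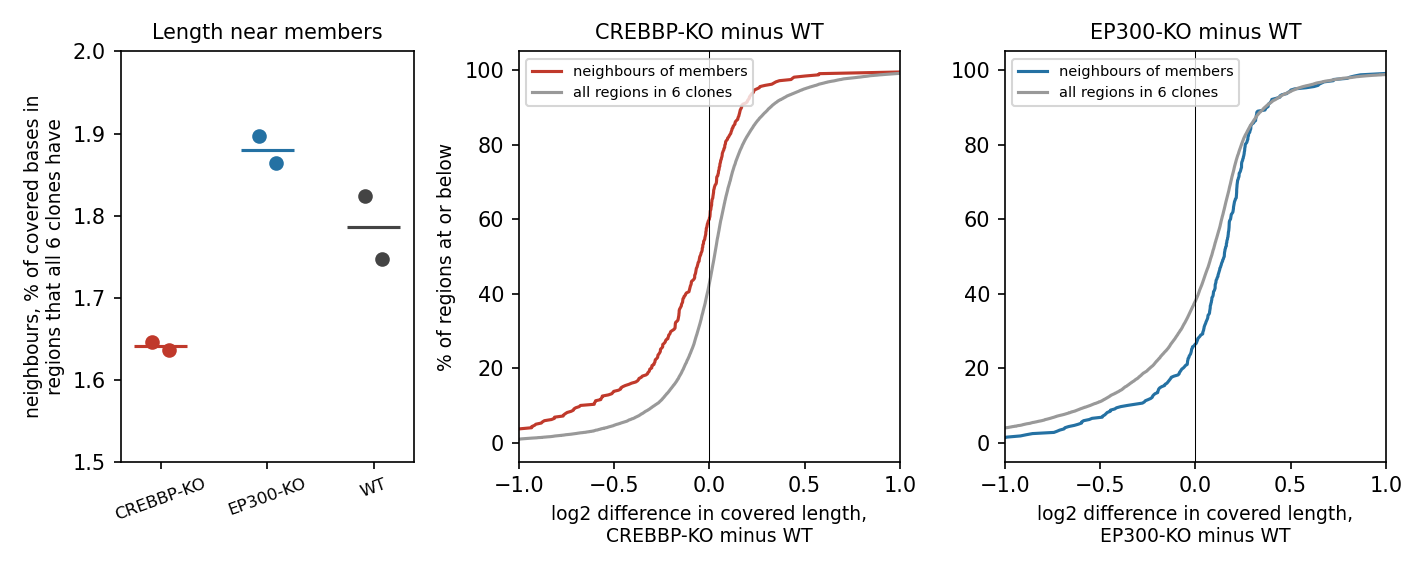
Left, bases of the 419 neighbours within 25 kb of a member as a percent of all bases in regions that the 6 clones have, 1 point per clone with the mean as a line, on an axis that starts at 1.5%. Middle and right, the share of regions at or below each log2 difference in covered length, for the 318 neighbours tested and for all 16811 regions tested. The CREBBP-KO points lie at 1.636% and 1.646%, and the neighbours' curve lies left of the grey one for CREBBP-KO minus WT and mostly right of it for EP300-KO minus WT.

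The 1818 regions that were absent only from both EP300-KO clones served as the counterpart. The 3358 regions of all 6 clones within 25 kb of these were shorter in both EP300-KO clones than in both WT clones in 66.6%, and shorter in both CREBBP-KO clones in 13.4%. Around the members these shares were 34.8% and 32.2%, and over all regions present in the 6 clones they were 45.5% and 18%. The log2 median of the 2947 counterpart neighbours tested was 0.06 for CREBBP-KO minus WT, against 0.03 for all tested regions of the 6 clones. For EP300-KO minus WT it was -0.10, against 0.08 for all. On this centred scale the neighbours of each set had a negative median for the knock-out that lacked the set, -0.05 around the members. Without centring, the neighbours of the members had negative medians for both knock-outs, -0.09 for CREBBP-KO and -0.05 for EP300-KO minus WT. Medians without centring were not computed for the counterpart's neighbours. The joining of peaks acts on the neighbours of both sets.

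Over whole 1 Mb windows with the members' own bases removed, 223 windows that had held a member were tested. For CREBBP-KO minus WT 0 of them were called lower and 0 higher in limma, where 0% of all 1967 windows were, and the median log2 difference was -0.05, against 0.01 for all. At an unadjusted p under 0.05, 28 (12.6%) were lower, where 7.17% of all were, and 13 (5.83%) were higher, where 10.1% were. For CREBBP-KO minus EP300-KO, 32 were called lower and 11 higher, where 7.02% and 13.7% of all were, and the median was -0.12, which turned to 0.07 without centring. The 46 windows tested that had held 2 or more members had a median of -0.09 for CREBBP-KO minus WT and -0.20 for CREBBP-KO minus EP300-KO. Neighbours close to the members lie in these windows, so the window values are not separate from those above.

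At 5 to 6 Mb of chromosome 6, peaks outside the 5 members covered 3.26 and 4.93 kb in the CREBBP-KO clones, 6.7 and 6.46 kb in the EP300-KO clones, and 6.97 and 4.95 kb in the WT clones. Both CREBBP-KO clones were below both EP300-KO clones and both WT clones, though CREBBP-KO clone 2 and WT clone 2 were nearly equal. The log2 difference was -0.47 (SE 0.16, adjusted p = 0.241) for CREBBP-KO minus WT and 0.42 (SE 0.16, adjusted p = 0.115) for EP300-KO minus WT, and limma called the direct difference of -0.89 (SE 0.16, adjusted p = 0.0157). The peaks left in this window include chr6:5298019-5298986 within the run and chr6:5695341-5696789, both given above. They also include chr6:5723926-5724764, at 243 and 292 bases in the CREBBP-KO clones and 839 and 727 bases in the EP300-KO clones. The direct call is therefore not separate from the regions beside the members, and nothing further is read from it. The window at 26 to 27 Mb of chromosome 6, singled out after its values were seen, holds butyrophilin genes such as BTN3A1 and BTN1A1 and held 3 members. Peaks outside them covered 46.7 and 56 kb in the CREBBP-KO clones, 56 and 58.7 kb in the EP300-KO clones, and 64.9 and 61.8 kb in the WT clones. Both CREBBP-KO clones were below both WT clones, and CREBBP-KO clone 2 reached the lower EP300-KO clone. In limma its direct log2 difference was -0.35 (SE 0.05, adjusted p = 0.0109), and that of CREBBP-KO minus WT was -0.23 (SE 0.05, adjusted p = 0.176).

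The number of members depended on which clones were used. Leaving out CREBBP-KO clone 2 gave 1247 members and leaving out WT clone 2 gave 701, while leaving out any of the other 4 clones gave 378 to 411. The clone left out is then no longer asked to lack or to have a region. CREBBP-KO clone 2 had the longer list of its genotype and WT clone 2 the shorter. With all lists limited to the 35054 best-scoring peaks, 268 regions met the rule, and 170 of them overlapped members, which is 63.4% of the 268 and 57.8% of the 294. Of the 32 members that the naming rule picked, the longest on chromosome 5 and those in the gene windows met the rule at equal list length, and 4 of the 5 members of the chromosome 6 window did not.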

How the data were processed

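H3K27ac was measured by ChIP-seq in 6 SUDHL4 clones, 2 per genotype, each with an input library. Per the labels' protocols, sheared chromatin of 200 to 500 bp was sequenced as paired 150 bp reads. The submitters' processing notes name CASAVA 1.8, Bowtie2 2.1.0, SAMtools 0.1.19 and the build hg19. Neither they nor the labels name the program that called the peaks. Per the file headers, each deposited list compares an immunoprecipitated library with its input and gives chromosome, start, end and a score per peak, which the authors' peak calling produced on a scale that is not stated. The lists do not state whether starts count from 0 or 1; counting from 0 was assumed, and printed starts may be off by 1 base. The depth of each library is unknown, and no interval of counting error is given.

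Merged regions, covered bases and distances (edge to edge) were computed with Python 3.11.15 and pandas 2.3.3. Differences were fitted with limma 3.58.1 in R 4.3.3, with a mean-variance trend, on log2(covered bases + 100), centred on each clone's median over regions or windows that all 6 clones have, with Benjamini-Hochberg adjustment over all regions or windows (chromosomes 1 to 22 and X). Fold changes on this scale understate the change of short regions. Regions needed at least 500 bases in 2 clones and windows at least 2000. The fit was run on simulated lengths that had the same spread in every region and no absent peaks. That setting differs from these lists, so the run does not show how the fit performs on them. All 6 clones entered each fit. Called means an adjusted p of at most 0.05.

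Members named are the 12 with the largest lowest length over the 4 clones, the 8 next by mean score percentile, all in a window with at least 4 members, and at most 2 per listed gene window. The set of members, the gene list and the tests were chosen with earlier results of these data known. No genome or annotation of hg19 was used here, so no sequence or nearest gene is given; gene windows rest on general knowledge of hg19 positions, and their chromosomes were checked in a RefSeq table of GRCh38. Alternatives tried were other pseudocounts, filters, centring, distances, joining, list length and score limits, and leaving out each clone. A few of the members and windows that the naming rule or the list picked are not reported here.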

Additional observations from a re-analysis of the deposited data

Results flagged for a closer look

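Of the 223 windows tested that had held members, 32 were called lower and 11 higher in the direct limma contrast of the 2 knock-outs after the members' bases were removed. Those are 14.3% and 4.93% of the 223, where 7.02% and 13.7% of all 1967 windows were called. Among the called windows are 3 of those that belong to a listed gene or held at least 3 members. At 5 to 6 Mb of chromosome 6 the log2 difference of CREBBP-KO minus EP300-KO was -0.89 (SE 0.16, limma adjusted p = 0.0157). At 26 to 27 Mb of chromosome 6 it was -0.35 (SE 0.05, limma adjusted p = 0.0109). In the CD22 window at 35 to 36 Mb of chromosome 19 it went the other way, at 0.28 (SE 0.06, limma adjusted p = 0.0264). Peaks of the CD22 window covered 33.4 and 41.9 kb in the CREBBP-KO clones, 27.3 and 26.8 kb in the EP300-KO clones, and 39.6 and 40.1 kb in the WT clones, so both EP300-KO clones were below the other 4. The call at 5 to 6 Mb of chromosome 6 is not separate from the regions beside the members there. Groups of 2 clones are too small for a check of single outlying clones.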

How the results depend on the processing

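The rule gave 294 members, 201 to 294 with other joining, list length or score limits, 192 with no CREBBP-KO peak within 1000 bases and 378 to 1247 without 1 clone. Regions called for CREBBP-KO minus WT numbered 2, 4 with a pseudocount of 1000, 4 with no centring, 0 with only the 4 clones compared, 58 with no trend (added after seeing the data) and 0 to 239 without 1 clone, the highest without WT clone 2. The direct contrast, CREBBP-KO minus EP300-KO, called 1810, and 382 to 1956 without 1 clone. The neighbours' percent of covered bases kept its sign in all 3 comparisons under every alternative run. Their median log2 difference for CREBBP-KO minus WT (-0.048) was -0.086 with no centring or within 10 kb, and -0.01 without CREBBP-KO clone 2 to -0.078 without CREBBP-KO clone 1. For EP300-KO minus WT (0.15) it was 0.072 with a pseudocount of 1000, -0.05 with no centring, 0.121 within 100 kb and 0.114 to 0.166 without 1 clone. For CREBBP-KO minus EP300-KO (-0.17) it was -0.088, -0.008, -0.23 within 10 kb and -0.216 to -0.122. Windows called for CREBBP-KO minus WT numbered 0, 37 with no centring, 2 with no trend and 0 to 223 without 1 clone, the highest without WT clone 2. The direct contrast called 408 windows, and 21 to 607 without 1 clone, the lowest without CREBBP-KO clone 2. The median of windows that had held a member was -0.118 with no centring and -0.091 to -0.014 without 1 clone for CREBBP-KO minus WT. For CREBBP-KO minus EP300-KO it was 0.067 with no centring, -0.11 with a pseudocount of 1000, -0.13 with no filter and -0.134 to -0.09 without 1 clone. The cause of these changes was not tested. No paired analysis was possible because the labels give clones no shared replicate numbers. A lone clone left in a group was assumed to vary like the others. The lists hold no reads, so a weak signal under the authors' threshold cannot be told apart from none.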

Other observations

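Chromosome X lies outside the rule. There, 8 of 669 regions present in both WT and both EP300-KO clones were in neither CREBBP-KO clone. The longest, chrX:24497215-24498876, covered 0 and 0 bases in the CREBBP-KO clones, 1306 and 1247 bases in the EP300-KO clones, and 1606 and 1344 bases in the WT clones, so both EP300-KO clones were below both WT clones. Nearby, chrX:24480677-24481627 covered 144 and 704 bases in the EP300-KO clones, and 945 and 572 bases in the WT clones.

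Of the 1460 regions on chromosomes 1 to 22 that both WT clones had and neither CREBBP-KO clone had, 956 were also in no EP300-KO clone and 210 were in exactly 1, against the 294 that both EP300-KO clones had. Regions missing only from both WT clones numbered 94, and those missing only from both EP300-KO clones 1818.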
